A study of Mus musculus with 6 samples.

Results

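The 36 genes described here encode the machinery of autophagy and the lysosome. They were listed by name from their known function, and the probes of the array were matched to them by accession through the RefSeq gene table. A probe filed under an accession outside that table would not be counted. All 36 were on the array, among 36717 gene names, with 51 probes between them. Of these genes, 10 act in initiation, 13 in conjugation, 7 are receptors or mark damaged mitochondria, and 6 belong to the lysosome.

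Total RNA came from the gastrocnemius of male mice, a muscle of the calf in which fast fibres predominate. The young group was 13 weeks of age (3 samples) and the old group 25 months (3 samples). The series title describes aged muscle as atrophied, and the labels give no strain, genotype or treatment for either group. Every array, a single-colour Agilent design, carried the Cy3-labelled RNA of 1 sample. The labels do not say that the samples of an age came from separate animals, so the p-values reflect only how far these samples vary, and that variation may be technical.

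Autophagy encloses part of the cytoplasm in a double membrane, the autophagosome, and delivers it to the lysosome for breakdown. The Ulk1 kinase complex and the Beclin 1 lipid kinase complex start the membrane, and a pair of ubiquitin-like conjugation reactions then attach LC3 and GABARAP proteins to it. Receptors such as p62 tie cargo to these proteins, and lysosomal hydrolases digest what is delivered. In skeletal muscle the pathway is known to remove damaged mitochondria and proteins, and both too much and too little of it are known to cause loss of muscle mass.

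On each array 49.9% to 54.8% of gene spots were well above background, with none saturated, and precision is limited by the number of arrays. Old replicate 1 was unlike the others: its negative controls had a mean signal of 61.3, against 51.9 to 55.1 on the others, and its spike-in slope was 0.840, against 0.925 to 0.941. Across all genes tested it correlated at 0.978, 0.982 and 0.969 with the young arrays and at 0.976 with each other old array. Old replicate 3 correlated lower with the young arrays, at 0.974, 0.97 and 0.966, so the correlations did not set old replicate 1 apart. Old replicate 1 lay in the same row of the slide as the 3 young arrays, while old replicates 2 and 3 lay in the other row. Results that rest on it are therefore given with and without it. All 12 markers of skeletal muscle fibres, such as Myh1, Tnnt3 and Des, were well above background on every array.

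No member passed the test between the ages. Levels below are log2 intensities relative to the 75th percentile of the same array, so that a level of 0 equals that percentile, and a difference is old minus young on the log2 scale with its standard error (SE, 3 arrays per age). Of the 36 genes, 35 could be tested, and all 35 were well above background on all 6 arrays. Across the array 53 of 20906 genes (0.254%) passed an adjusted p of 0.05 (limma, Benjamini-Hochberg over all genes), against 0 of the 35 members, whose lowest adjusted p was 0.309, for Atg3. Of the 20906, 13846 had a gene symbol, and the others, counted under the array file's name, are part of every share over all genes. At an unadjusted p under 0.05 there were 0 members higher in old muscle, where 6.07% of all genes were. Lower in old muscle at that p were 2 members, Ulk2 and Atg3, which is 5.71% of the members against 8.39% of all genes.

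The young and old values of a gene did not overlap, with the old values lower, for 5 members (14.3%): Ulk2, Atg3, Atg10, Tfeb and Lamp1. The share over all genes was 13.9%, so this count is near the background. None had all old values above all young ones, where 7.93% of all genes did. An exact permutation test of 3 arrays against 3 cannot give a p below 0.1. The members' differences ran from -0.76 for Atg3 to 0.52 for Nbr1, with 20 genes above 0 and 15 below. Their median was 0.05, beside -0.06 over all genes tested, and their median size without sign was 0.24, beside 0.25. Centring the arrays on their median instead moved every member alike by -0.15, to a median of -0.10 with 8 of 35 above 0, and took the median of all genes to -0.21. Relative to all genes the members' median was 0.11 under both scalings.

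The 95% interval of the difference lay wholly within 1 log2 unit of 0 for 26 members (74.3%, beside 66.4% of all genes). For each of these 26 a change of more than 1 log2 unit lay outside the interval of the brightest probe. Dimmer probes of Bnip3l, Gabarap and Bnip3, which are among the 26, had intervals reaching up to 2.97, 2.28 and 1.65. The other 9 were Ulk1, Atg2a, Wipi2, Atg3, Atg16l1, Gabarapl1, Sqstm1, Nbr1 and Fundc1. Since an array measures RNA from the whole tissue, fewer cells of a type and less RNA per cell cannot be told apart.

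**Figure D1:**
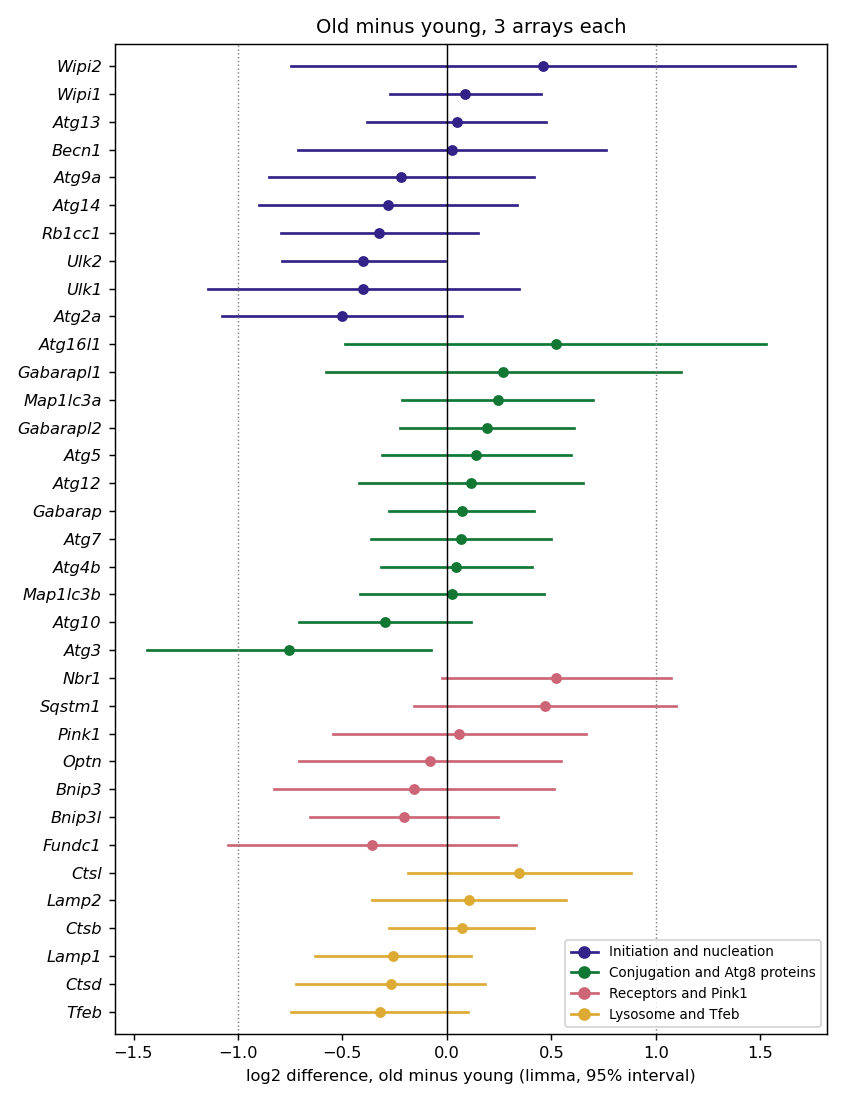
Log2 difference, old minus young, for the 35 members tested, coloured by role, with the 95% interval of each (limma, 3 arrays per age). All intervals except those of Ulk2 and Atg3 reach 0, and no member passed the adjusted threshold.

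No initiation gene passed the test, and the median of the 10 depended on which old arrays were used. Of the 10, 6 had a difference below 0 and 4 above, with a median of -0.25. Without old replicate 1 the median was -0.41, with 8 of 10 below 0. In the comparison within slide row 1, of old replicate 1 against the 3 young arrays, it was 0.16.

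Ulk1 encodes the kinase that starts autophagosome formation. Its level was 6.55, 6.86 and 6.01 in young replicates 1 to 3 and 6.58, 5.96 and 5.67 in old replicates 1 to 3. Old replicate 1 lay within the young range and the other old arrays below it. The difference was -0.40 ± 0.31 (SE; adjusted p = 0.581), and -0.66 without old replicate 1 (adjusted p = 0.296). Within slide row 1 it was 0.11.

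Ulk2, the close relative of Ulk1, showed the smaller spread. Young levels were 1.97, 2.29 and 1.99, and old levels were 1.71, 1.76 and 1.59. Every old array was below every young array. The difference was -0.40 ± 0.16 (SE; 95% interval -0.79 to -0.01; adjusted p = 0.337), and -0.41 without old replicate 1. A second, dimmer Ulk2 probe gave -0.17 ± 0.21 (SE).

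Rb1cc1, which encodes the scaffold FIP200 of the Ulk1 complex, had levels of 2.99, 3.19 and 3.41 in young muscle and 3.06, 2.95 and 2.61 in old muscle. Old replicate 1 was the only old array inside the young range. The difference was -0.32 ± 0.20 (SE; adjusted p = 0.490), while its other probe gave -0.01. Atg13, the regulatory subunit that binds both proteins, had a difference of 0.05 ± 0.18 (SE).

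Atg2a encodes a lipid transfer protein that feeds the growing membrane. Its level was 1.60, 1.93 and 1.79 in young muscle and 1.67, 1.31 and 0.84 in old muscle. Old replicates 2 and 3 were below all young arrays and old replicate 1 was among them. The difference was -0.50 ± 0.24 (SE; 95% interval -1.08 to 0.07; adjusted p = 0.399), and -0.70 without old replicate 1 (adjusted p = 0.184). Within slide row 1 it was -0.11.

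The same order of arrays was seen for Atg9a and Atg14. Atg9a, the membrane protein of the vesicles that seed the autophagosome, had nearly equal young levels of 1.47, 1.49 and 1.51, and old levels of 1.83, 1.18 and 0.81. Every young array lay between old replicate 1, the highest, and the other old arrays. The difference was -0.22 ± 0.27 (SE; adjusted p = 0.732), -0.49 without old replicate 1 (adjusted p = 0.244) and 0.33 within slide row 1. Atg14, which directs the Beclin 1 complex to autophagy, had young levels of 1.26, 1.58 and 1.20 and old levels of 1.57, 0.89 and 0.72. Its old replicate 1 lay among the young arrays and the other old arrays below them. The difference was -0.28 ± 0.26 (SE; adjusted p = 0.639), -0.54 without old replicate 1 (adjusted p = 0.232) and 0.23 within slide row 1.

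The remaining initiation genes overlapped between the ages. Becn1 itself, which encodes Beclin 1, varied widely within each age, from 1.11 to 1.81 in young and from 0.86 to 1.81 in old muscle, with a difference of 0.03 ± 0.31 (SE). Wipi1 and Wipi2 encode proteins that read the lipid made by that complex. Wipi1 had a difference of 0.09 ± 0.15 (SE). Wipi2 had levels of 0.94, 0.79 and -0.93 in young muscle and 1.05, 0.79 and 0.32 in old muscle. Young replicate 3 alone stood far below the rest, so the difference was 0.46 ± 0.51 (SE) with it and -0.14 without it.

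**Figure D2:**
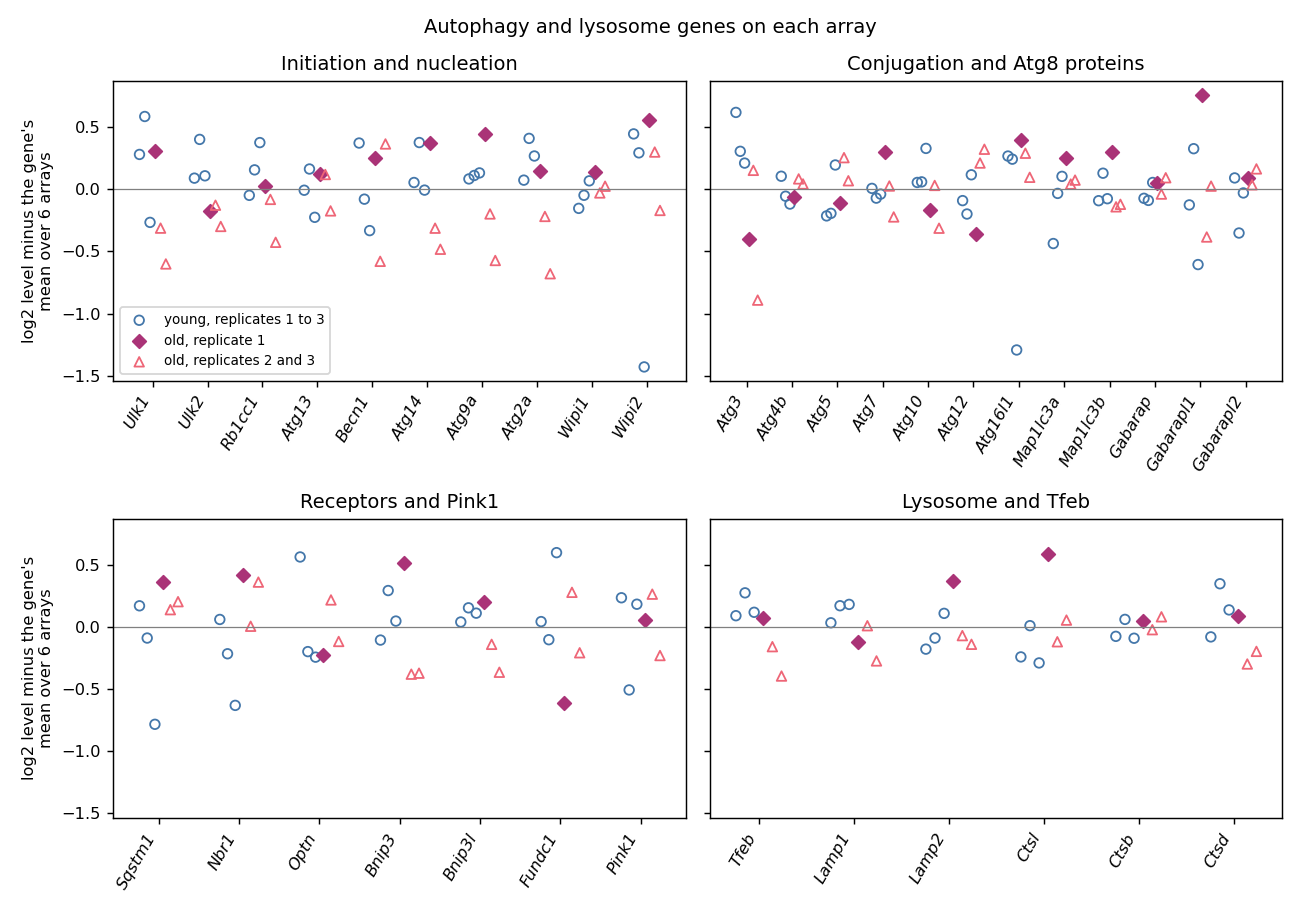
Log2 level of each tested member on each array minus the gene's mean over the 6 arrays, with genes grouped by role, young arrays as circles, old replicate 1 as diamonds and old replicates 2 and 3 as triangles. Ulk1, Atg14, Atg9a, Bnip3 and Gabarapl1 stand higher on old replicate 1 than on both other old arrays, and Wipi2 and Atg16l1 are low on 1 young array, replicate 3.

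Most genes of the conjugation machinery differed little between the ages. Of the 13, 12 could be tested, none passed the test, and 10 had a difference above 0 and 2 below, with a median of 0.09. Without old replicate 1 there were 7 above 0 and 5 below, with a median of 0.07. Within slide row 1 there were also 7 above 0 and 5 below. Median centring, with its shift of -0.15, left 4 above 0 and 8 below, and the group's median was 0.16 above that of all genes under both scalings. Atg4a, one of the proteases that prime LC3 and GABARAP proteins, was well above background on only 2 of 6 arrays. Its levels ran from -4.34 to -3.90 on the young and from -4.50 to -3.33 on the old arrays, and it was not tested.

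Atg3 encodes the E2-like enzyme that transfers LC3 to its lipid, and it had the largest difference of any member by size. Its level was 2.46, 2.15 and 2.05 in young muscle and 1.44, 1.99 and 0.95 in old muscle. All old arrays were below all young ones, with the smallest gap at old replicate 2. The difference was -0.76 ± 0.29 (SE; 95% interval -1.44 to -0.08), a fold of 1.69 lower, at an adjusted p of 0.309. It was -0.75 without old replicate 1 and -0.50 without old replicate 3.

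Atg10, the E2-like enzyme of the other reaction, which joins Atg12 to Atg5, had levels of -0.0047, -4.6e-05 and 0.27 in young and -0.22, -0.03 and -0.37 in old muscle. The groups did not overlap, but old replicate 2 and the nearest young arrays were only just apart. The difference was -0.30 ± 0.17 (SE; adjusted p = 0.472), and a second probe gave -0.04 ± 0.33 (SE). Without old replicate 2 that other probe became the brighter one and the difference of Atg10 was 0.34.

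The partners of these enzymes were close to level. Atg7, the E1-like enzyme that activates both systems, had a difference of 0.07 ± 0.18 (SE). Atg5 and Atg12, which are joined to each other, had differences of 0.14 ± 0.19 and 0.12 ± 0.23 (SE). Atg4b, the main LC3-priming protease, had a difference of 0.05 ± 0.15 (SE). Atg16l1, which brings the Atg12 and Atg5 pair to the membrane, had levels of 1.41, 1.39 and -0.15 in young and 1.54, 1.43 and 1.24 in old muscle. As for Wipi2, young replicate 3 alone was low. The difference was 0.52 ± 0.42 (SE; adjusted p = 0.596), and 0.0056 without that array.

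The LC3 and GABARAP proteins coat the autophagosome and bind the cargo receptors. Map1lc3b, the LC3 form most often used to count autophagosomes, had levels of 6.65, 6.87 and 6.66 in young and 7.04, 6.60 and 6.62 in old muscle. The highest array was old replicate 1 and the lowest were the other old arrays, by small margins. The difference was 0.02 ± 0.19 (SE; 95% interval -0.42 to 0.47; adjusted p = 0.958). Map1lc3a had levels of 5.68, 6.08 and 6.22 in young and 6.36, 6.15 and 6.19 in old muscle, which overlap, with a difference of 0.24 ± 0.19 (SE; adjusted p = 0.587).

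Gabarapl1 had the largest SE of the LC3 and GABARAP genes. Its level was 7.0, 7.45 and 6.52 in young and 7.89, 6.74 and 7.15 in old muscle. Old replicate 1 was 0.94 above the mean of the other old arrays, which lay inside the young range. The difference was 0.27 ± 0.36 (SE; adjusted p = 0.755), and -0.04 without old replicate 1. Gabarapl2 had a difference of 0.19 ± 0.17 (SE).

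Gabarap was measured by probes that disagreed. The brighter probe gave 6.32, 6.30 and 6.44 in young and 6.44, 6.35 and 6.48 in old muscle, which overlap closely, with a difference of 0.07 ± 0.15 (SE). The dimmer probe ranged from 2.68, on young replicate 3, to 5.20, on old replicate 3, and gave 0.94 ± 0.57 (SE), with an adjusted p of 0.495 over all probes.

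Cargo receptors split between higher and lower values, and none of the 7 genes passed the test. Sqstm1 encodes p62, which carries ubiquitin-tagged protein into autophagosomes and is itself degraded there. Its level was 5.85, 5.59 and 4.89 in young and 6.04, 5.81 and 5.88 in old muscle. The groups overlapped through young replicate 1, and young replicate 3 was the lowest array. The difference was 0.47 ± 0.26 (SE; 95% interval -0.16 to 1.09; adjusted p = 0.457), 0.41 without old replicate 1 and 0.19 without young replicate 3.

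Nbr1, a receptor related to p62, followed a similar order. Its level was 0.08, -0.19 and -0.61 in young and 0.44, 0.03 and 0.38 in old muscle. Only old replicate 2 lay within the young range. The difference was 0.52 ± 0.23 (SE; 95% interval -0.02 to 1.07; adjusted p = 0.364), 0.45 without old replicate 1 and 0.34 without young replicate 3. Optn, which encodes the receptor optineurin, had a difference of -0.08 ± 0.26 (SE).

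No receptor that ties mitochondria to autophagosomes passed the test. Bnip3, a mitochondrial receptor known to respond to Foxo3 in muscle wasting, had levels of 8.62, 9.02 and 8.77 in young and 9.24, 8.35 and 8.35 in old muscle. Old replicate 1 was the highest of the 6 arrays and the other old arrays were the lowest. The difference was -0.16 ± 0.28 (SE; adjusted p = 0.820), -0.45 without old replicate 1 (adjusted p = 0.281) and 0.44 within slide row 1. Its other probes gave -0.00013 ± 0.18 and 0.37 ± 0.54 (SE).

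Bnip3l, also called Nix, clears mitochondria in maturing red cells. Its brightest probe gave 4.90, 5.02 and 4.98 in young and 5.06, 4.72 and 4.50 in old muscle. Again old replicate 1 was the highest array and the other old arrays the lowest. The difference was -0.20 ± 0.19 (SE; adjusted p = 0.644), and -0.35 without old replicate 1. A pair of further probes gave -0.22 and -0.27.

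The 4th Bnip3l probe ran the other way. It gave 0.94, -0.11 and -0.08 in young and 0.66, 2.58 and 2.43 in old muscle. Old replicate 1 lay among the young arrays, and old replicates 2 and 3 were far above them. The difference was 1.64 ± 0.56 (SE; 95% interval 0.31 to 2.97), with an adjusted p of 0.291 over all probes, so it did not pass the test either. Which Bnip3l transcript each probe reads was not tested.

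Fundc1, an outer-membrane mitochondrial receptor, had levels of 3.27, 3.12 and 3.82 in young and 2.62, 3.50 and 3.02 in old muscle. The groups overlapped, and the difference was -0.36 ± 0.29 (SE; adjusted p = 0.595). Its lowest array was old replicate 1, and the difference was -0.14 without it and -0.79 within slide row 1. Pink1, the kinase that marks damaged mitochondria, ranged from 6.84 to 7.58 in young and from 7.12 to 7.61 in old muscle, with a difference of 0.06 ± 0.25 (SE).

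**Figure D3:**
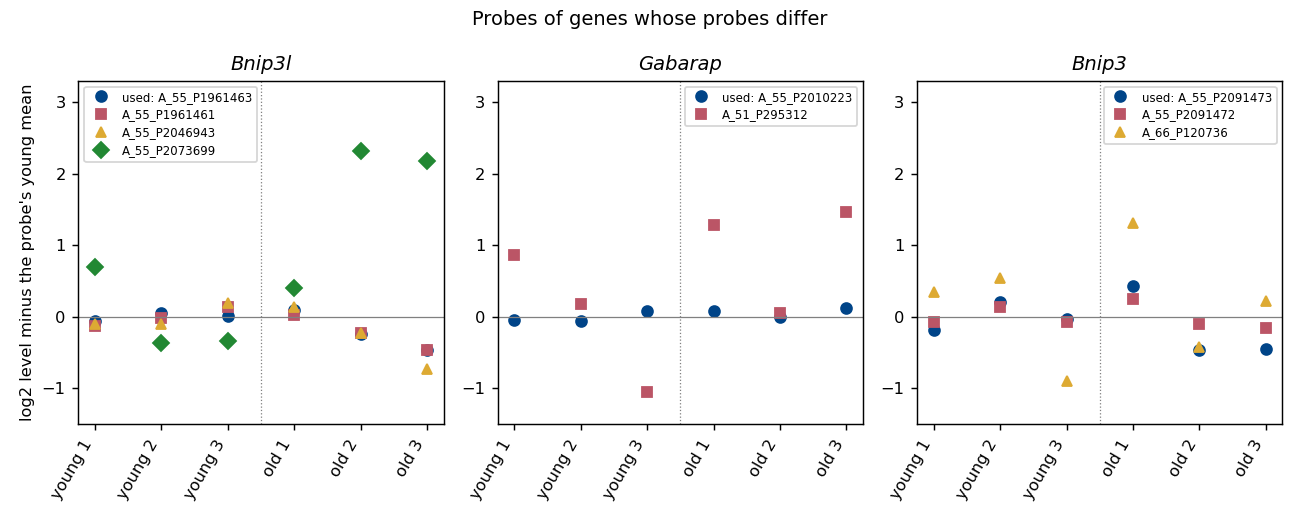
Log2 level of each kept probe of Bnip3l, Gabarap and Bnip3 on the 6 arrays, minus that probe's mean over the young arrays, with the probe that represents the gene marked as used. The differences of the probes lie 1.91 apart for Bnip3l, 0.86 for Gabarap and 0.53 for Bnip3, and 1 Bnip3l probe is high on old replicates 2 and 3 while the others are low.

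Lysosomal genes were split evenly, with 3 of 6 above 0 and a median of -0.09 that was 0.03 with quantile normalization. Without old replicate 1, 2 were above 0 and 4 below, with a median of -0.16. Tfeb encodes the transcription factor that switches on lysosomal and autophagy genes. Its level was 2.91, 3.09 and 2.94 in young and 2.89, 2.66 and 2.42 in old muscle. All old arrays were below all young ones, but old replicate 1 only just. The difference was -0.32 ± 0.18 (SE; 95% interval -0.75 to 0.10; adjusted p = 0.452), and -0.44 without old replicate 1 (adjusted p = 0.268). Within slide row 1 it was -0.09.

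Tfeb and its relatives are known to bind the letters CACGTG, extended to TCACGTGA in the element described in lysosomal promoters. Promoter windows of RefSeq (GRCm38.p6), from 250 bases before to 50 after the gene start, were searched for both. The letters read the same on both strands, and each longer match contains a shorter one. Windows were found for 29 members, and not for Rb1cc1, Atg12, Bnip3l, Ctsb, Map1lc3a, Becn1 and Atg16l1. The 29 members had 33 windows, since some have more than 1. CACGTG was present in 8 of the 33 (24.2%), 1 for each of 8 members, against 7.15% of all 32851 windows. These were Atg14, Atg3, Atg5, Atg7, Bnip3, Ctsd, Ctsl and Lamp1. TCACGTGA was present in 2 of the 33 (6.06%), those of Atg3 and Ctsd, against 0.974% of all windows. The forkhead letters TGTTTAC, on either strand, were in 0 of the 33 windows and in 3.65% of all. A match of letters is a description of the window and not a bound site.

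Shown here are the extended matches, of Ctsd and Atg3, and for comparison 1 of the 4 matches of Lamp1 and the match of Atg14, each in 30 bases of the gene's own strand with CACGTG in capitals. They lie at chr7:142387908-142387937 on the minus strand, chr16:45158746-45158775 on the plus strand, chr8:13159121-13159150 on the plus strand and chr14:47568418-47568447 on the minus strand.
Ctsd: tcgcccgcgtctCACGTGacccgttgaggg
Atg3: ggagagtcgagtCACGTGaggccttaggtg
Lamp1: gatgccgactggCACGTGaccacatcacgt
Atg14: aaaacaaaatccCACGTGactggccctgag
The capitals begin 98 bases before the start of Ctsd, 71 before that of Atg3, 28 before that of Lamp1 and 1 before that of Atg14. The 8 members with CACGTG had differences from -0.76 (Atg3) to 0.35 (Ctsl), 3 above 0 and 5 below, with a median of -0.21. The 20 tested members with a window and no match had differences from -0.50 to 0.52 and a median of 0.05. Both ranges span 0 and overlap over most of their length.

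Lamp1, a main glycoprotein of the lysosomal membrane, had levels of 8.29, 8.42 and 8.43 in young and 8.13, 8.26 and 7.98 in old muscle. The groups did not overlap, with old replicate 2 close to young replicate 1. The difference was -0.26 ± 0.16 (SE; 95% interval -0.63 to 0.12; adjusted p = 0.489), and the same -0.26 without old replicate 1. Lamp2, its relative and the one whose loss causes Danon disease of heart and muscle, had levels of 4.19, 4.28 and 4.48 in young and 4.74, 4.30 and 4.23 in old muscle. These overlap, and the difference was 0.11 ± 0.20 (SE; adjusted p = 0.826), or -0.05 without old replicate 1.

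The 3 cathepsins, the proteases of the lysosome, did not move together. Ctsl, the cathepsin known to rise in several kinds of muscle wasting, had levels of 5.75, 6.0 and 5.70 in young and 6.57, 5.87 and 6.05 in old muscle. Old replicate 1 was the highest array, and the groups overlapped through old replicate 2. The difference was 0.35 ± 0.23 (SE; 95% interval -0.19 to 0.88; adjusted p = 0.513), and 0.14 without old replicate 1.

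Ctsd, the aspartic protease among them, had levels of 7.56, 7.98 and 7.77 in young and 7.73, 7.34 and 7.44 in old muscle. Old replicate 1 lay among the young arrays and the other old arrays below them. The difference was -0.27 ± 0.19 (SE; adjusted p = 0.545), -0.38 without old replicate 1, and -0.08 by a second probe. Ctsb was nearly level on all arrays, at 6.43, 6.56 and 6.41 in young and 6.55, 6.48 and 6.59 in old muscle, with a difference of 0.07 ± 0.15 (SE; 95% interval -0.28 to 0.42).

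Old replicate 1 stood out among the members. It was the highest of the 6 arrays for 14 of 35 (40.0%), where it was the highest for 15.9% of all genes, and the lowest for 2 (5.71%), where it was the lowest for 24.3%. Old replicate 3 was the lowest array for 12 members (34.3%, beside 24.1% of all genes), and young replicate 3 for 10 (28.6%, beside 14.9%). Young replicate 3 was the highest array for 4 members (11.4%), beside 30.2% of all genes. The lists most like the members leaned the same way, the other lysosomal genes least. Old replicate 1 was the highest array for 37.8% of the other autophagy genes and 35.3% of the proton pump genes. Among the other lysosomal enzymes and membrane proteins it was the highest for 25.0%. Young replicate 3 was the lowest array for 40.5%, 41.2% and 22.5% of these lists. The members' median deviation was 0.14 on old replicate 1, -0.02 on old replicate 2 and -0.17 on old replicate 3, and 0.04 to 0.06 on the young arrays.

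Leaving out old replicate 1 gave a lower median of the members and still no call. The remaining old arrays all lay in the other slide row from the young arrays, so here age and row cannot be told apart. The median was -0.05, beside -0.04 over all genes, with 15 above 0 and 20 below. The difference without it was -0.094 for Becn1, -0.064 for Atg7, 0.23 for Atg5 and 0.32 for Atg12. It was 0.17 for Wipi2 and 0.0097 for Optn. Of the 20475 genes then tested, 186 (0.908%) passed the adjusted threshold, and 0 of the members did. At an unadjusted p under 0.05, 0 members were higher, beside 7.23% of all genes. Lower at that p were 4 members (11.4%, beside 10.9% of all genes), namely Atg14, Atg9a, Atg2a and Tfeb. That share is near the background.

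**Figure D4:**
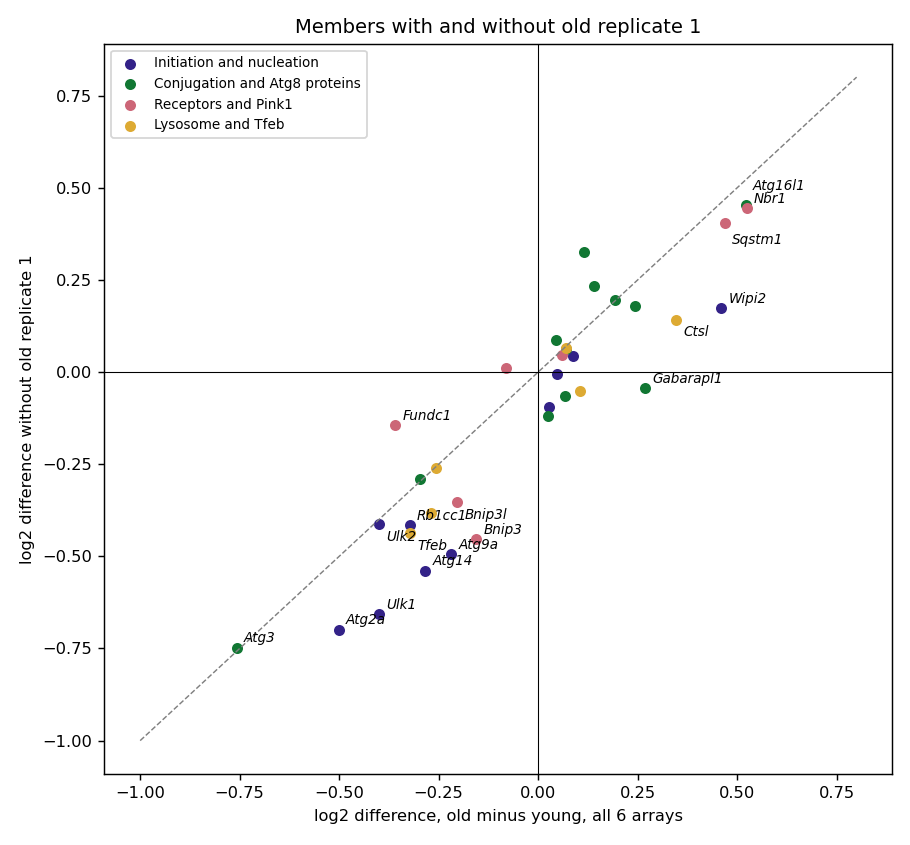
Log2 difference, old minus young, of the 35 members without old replicate 1 (vertical axis) against that with all 6 arrays (horizontal axis), coloured by role, with the line of equal values dashed. Ulk1, Atg14, Atg9a, Bnip3 and Gabarapl1 lie below the line, and Atg3, Ulk2 and Lamp1 lie on or near it.

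The other autophagy genes gave no call either. Of 38 listed, 37 were tested, with 21 above 0 and 16 below, a median of 0.12 (-0.03 after the shift of median centring) and none past the test. At an unadjusted p under 0.05 there were 2 higher and 1 lower. Atg101, the partner of Atg13 in the Ulk1 complex, had levels of 5.47, 5.16 and 5.36 in young and 4.74, 4.86 and 4.55 in old muscle, a difference of -0.61 ± 0.17 (SE; adjusted p = 0.205). Every old array was below every young one. Plekhm1, an adaptor for fusion with the lysosome, had a difference of 0.46 ± 0.15 (SE; adjusted p = 0.272). Fkbp8, another mitochondrial receptor, had a difference of -0.34 ± 0.15 (SE; adjusted p = 0.369).

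Other lysosomal enzymes and membrane proteins, 40 genes, were split 20 to 20 with a median of 0.00, and none passed the test. At an unadjusted p under 0.05, 4 were higher and 5 lower. Ctsk, a collagen-degrading cathepsin best known from osteoclasts, came nearest, with levels of 1.79, 1.81 and 1.89 in young and 0.94, 0.77 and 0.77 in old muscle. The gap between the ages was several times the spread within them. The difference was -1.01 ± 0.15 (SE; adjusted p = 0.0673), and -1.06 without old replicate 1 (adjusted p = 0.0538). Within slide row 1 it was -0.89. Ctsk passed the test with normexp background correction (adjusted p = 0.0363) and with array weights (0.0316), and under no other alternative. Tpp1, a lysosomal peptidase, had a difference of -0.74 ± 0.15 (SE; adjusted p = 0.140). Smpd1, the acid sphingomyelinase, had a difference of -0.55 ± 0.14 (SE; adjusted p = 0.194). Lgmn, the protease legumain, which processes cathepsins, had a difference of 0.89 ± 0.28 (SE; adjusted p = 0.249).

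Psap, which encodes the precursor of the saposins, was named after its values were seen, because it was the single gene of that list to pass without old replicate 1. Its level was 6.0, 5.87 and 5.44 in young and 5.78, 3.87 and 3.94 in old muscle. Old replicate 1 lay among the young arrays and the other old arrays far below. The difference was -1.24 ± 0.52 (SE; adjusted p = 0.342), and -1.87 without old replicate 1 (adjusted p = 0.0324). Within slide row 1 it was 0.0081. The low arrays are those of the other slide row, so age and row cannot be told apart for this gene.

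The proton pump that acidifies the lysosome had 17 tested genes, of which 14 were above 0 and 3 below, with a median of 0.21. After the shift of median centring 11 were above 0 and the median was 0.06. None passed the test, and 2 were higher at an unadjusted p under 0.05. Atp6ap2, an accessory subunit, had levels of 1.49, 1.39 and 1.67 in young and 2.31, 2.17 and 2.33 in old muscle, which do not overlap, with a difference of 0.75 ± 0.16 (SE; adjusted p = 0.142). Atp6v1a, the catalytic subunit, had levels of 2.69, 2.83 and 3.21 in young and 3.53, 3.61 and 3.76 in old muscle. Again all old arrays were above all young ones, with a difference of 0.72 ± 0.19 (SE; adjusted p = 0.190). Atp6v0d1, another subunit of the pump, had a difference of 0.74 ± 0.33 (SE; adjusted p = 0.376), and 0.36 without young replicate 3. Atp6v1b2, well above background on only 2 of the young arrays, had a difference of 1.69 ± 0.74 (SE; adjusted p = 0.361), and 0.85 without young replicate 3.

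**Figure D5:**
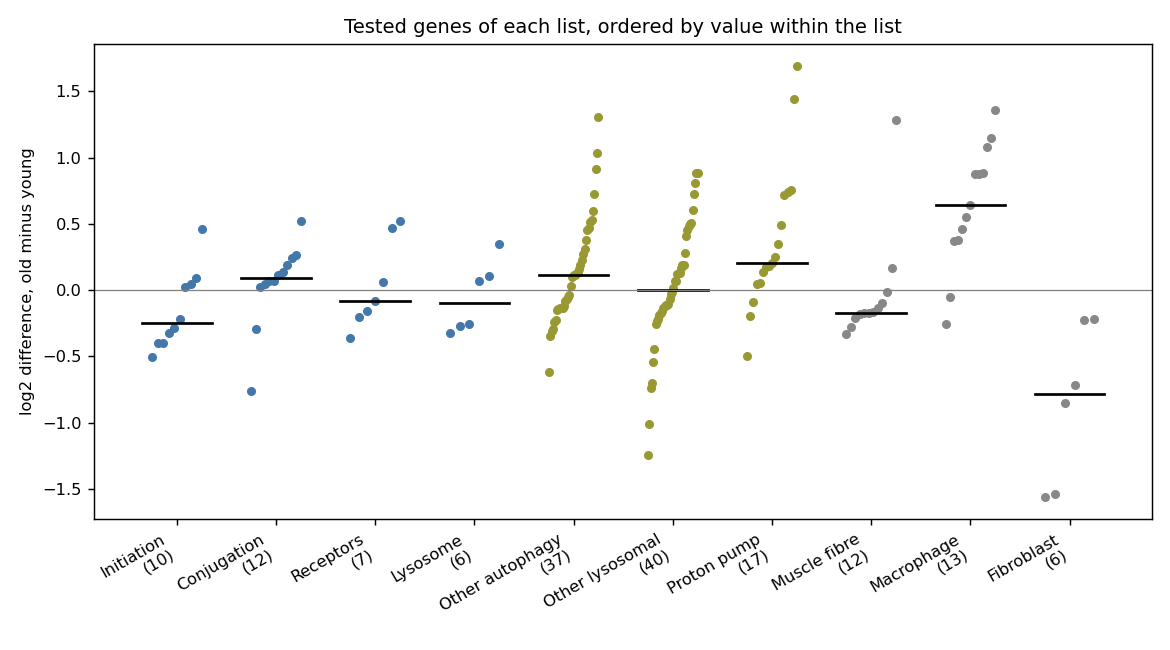
Log2 difference, old minus young, of every tested gene (points) in the 4 role groups, the other autophagy, lysosomal and proton pump lists, and the muscle fibre, macrophage and fibroblast markers, with the median of each list as a bar. The medians of the role groups lie between -0.25 and 0.09, that of the macrophage markers at 0.64 and that of the fibroblast markers at -0.79.

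Macrophages are rich in lysosomes, so their markers are given beside the lysosomal genes. Of 14 macrophage markers 13 were tested, all well above background on every array, 11 above 0 and 2 below, with a median of 0.64 and none past the test. The lowest p among them were those of C1qb, with a difference of 0.89 ± 0.17 (SE; adjusted p = 0.125), and Tyrobp, with 0.88 ± 0.17 (SE; adjusted p = 0.133). Fcer1g had 0.87 ± 0.21 (SE; adjusted p = 0.163) and Cd68, a lysosomal protein of macrophages, 1.08 ± 0.27 (SE; adjusted p = 0.175). The summed linear level of the 13, in multiples of the 75th percentile, was 49.4 to 57.7 on the young and 59.7 to 62.7 on the old arrays.

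Of the neutrophil markers, S100a8 and S100a9, which encode a pair of calcium-binding proteins, passed the test. S100a8 rose by 4.80 ± 0.31 (SE; adjusted p = 0.0060) and S100a9 by 4.70 ± 0.30 (SE), in 3 of 3 old arrays. Both lost the call without old replicate 3 (adjusted p = 0.0798 for S100a8). Of the 9 neutrophil markers 5 were tested, 3 above 0 and 2 below, and with no filter on dim probes 4 were above 0 and 4 below, with a median of 0.13. The summed level of the 5 was 1.40 to 1.95 on the young and 17.0 to 25.2 on the old arrays. Retnlg was well above background on none of the young arrays and on all old ones. With the main processing it was at least 8.20-fold higher in old muscle (adjusted p = 0.0604). That bound put the young mean at -3.89 in place of the measured -4.30, with the lowest level well above background on each young array as a floor. It holds for the main processing only. The median of the 5 tested markers, which was the value of Retnlg at 3.45, was 1.37 with normexp background correction. Retnlg passed the test with median centring (adjusted p = 0.0286) and with array weights (0.0455). Camp had a difference of -0.40 ± 0.15 (SE; adjusted p = 0.296) and Elane -0.31 ± 0.18 (SE), each with all old values below all young ones. All 6 fibroblast markers were below 0, with a median of -0.79 and none past the test. Young replicate 3 was the highest array for all 6, and old replicate 1 was the lowest for 5 of them. Without old replicate 1, 5 of 6 were below 0, with a median of -0.54, and Col3a1 went from -0.72 to 0.010. The fibroblast markers had a summed level of 447 to 508 on the young and 209 to 343 on the old arrays. Col1a2, a collagen chain, had a difference of -1.54 ± 0.36 (SE; adjusted p = 0.162), Col1a1 -1.56 ± 0.56 (SE; -0.90 without old replicate 1), the proteoglycan gene Dcn -0.85 ± 0.34 (SE) and the receptor gene Pdgfra -0.21 ± 0.15 (SE). The part of these cell types in the values of Ctsk, Lgmn, Ctsl and the other lysosomal genes was not tested.

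Markers of fat, vessels and muscle fibres gave no call. Among 4 tested adipocyte markers the differences were -0.34 for Cfd, -0.48 for Plin1, -0.24 for Adipoq and 0.16 for Retn. Among 5 endothelial markers Cdh5 had the lowest p, with -0.79 ± 0.22 (SE; adjusted p = 0.215), followed by Kdr at -0.36, Vwf at -0.32 and Pecam1 at 0.52. The 12 fibre markers had a median of -0.17, which was 0.01 with quantile normalization, -0.04 without old replicate 1 and -0.42 within slide row 1. For 10 of the 12, old replicate 1 was the lowest array, and for 9 young replicate 3 was the highest. Myh1, a fast myosin, had a difference of -0.33 ± 0.19 (SE), Tnnt3, the fast troponin T, -0.27 ± 0.16 (SE), and Des, desmin, 0.17 ± 0.15 (SE). Mylpf, a fast myosin light chain, was low on young replicate 3, as Wipi2 and Atg16l1 were, and had a difference of 1.29 ± 0.73 (SE), or 0.36 without that array.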

How the data were processed

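Per spot, the deposited scanner files give an intensity from which Agilent Feature Extraction 11.0.1.1 had subtracted background and a spatial trend (per the file headers). Version 9.5 stands in the submitters' processing notes. The authors' value table is an intensity too: dividing the processed signal by its 75th percentile over an array's spots, multiplying by 100 and rounding gave all 62976 of its values on each array. Its scale is thus linear and not centred, its direction is that of the signal, and its column medians were 6, 7 and 7 (young) and 9, 7 and 6 (old). It served as an alternative.

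Control spots and outlier spots (161 to 212 per array) were dropped. Values are the log2 of the deposited processed intensity, averaged per probe, minus the 75th percentile over each array's 55681 probes. Probes matched RefSeq GRCm38.p6 symbols by accession (28331) or kept the file's name (27350); the array design names mm9, so coordinates are given only for RefSeq windows. A probe was kept where at least 3 of 6 arrays were well above background (28012 probes), and the brightest stood for each of 20906 genes. Ages were compared by limma 3.58.1 under R 4.3.3 (lmFit, eBayes, two-sided, Benjamini-Hochberg over these genes), and the fit was tested on simulated data. Python 3.11.15 with pandas 2.3.3, numpy 2.4.6 and matplotlib 3.10.9 made the tables and figures. All members are named; array values are given for the 4 lowest p of each role, for Sqstm1, Map1lc3b, Gabarapl1, Bnip3, Ulk1, Tfeb, Ctsl and Lamp2, and for Atg9a, Atg14, Wipi2, Gabarap and Ctsb, which were added after their values were seen. In each other list the 4 lowest p and any past the threshold are named; Psap, Elane and Col3a1 were added after their values were seen. In the list of other autophagy genes 1 gene of that rule is not reported here. Members, lists and tests were chosen with earlier results of these data known.

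All arrays shared 1 slide. Alternatives were quantile normalization, median centring, normexp (offset 50, on the median signal), the authors' values, a gene's mean over probes, other filters on dim probes, array weights, blocks of replicate number or slide row, and omitting each array.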

Additional observations from a re-analysis of the deposited data

How the results depend on the processing

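No member passed the threshold under any alternative, and the lowest adjusted p of a member was 0.183 (Atg2a, array weights, limma). Of 560 values of members under the alternatives 509 kept their direction and 51, in 21 genes, did not. Of the 51, 12 came from median centring, which moved every member by -0.15 and so turned small values above 0, and 39 from the other alternatives. The count of 53 genes past the threshold was 8 with no filter on dim probes, 35 with probes required on all arrays, 194 with array weights and 5 with the replicate number as a block, and 1 (without old replicate 3) to 186 (without old replicate 1) when an array was left out; the replicate block left 0 members called. The labels share only replicate numbers between the ages. Deviations of same-numbered samples from their group means correlated at -0.06, -0.27 and 0.03 across genes, and no sample correlated best with its own number. The members' median of 0.05 became -0.10 with median centring, which moved the median of all genes from -0.06 to -0.21, and -0.067 with array weights. The cause of these changes was not tested.

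With median centring the difference turned to -0.032 for Atg12, -0.10 for Atg13 and Atg4b, -0.0063 for Atg5, -0.079 for Atg7, -0.12 for Becn1 and Map1lc3b, -0.077 for Ctsb, -0.076 for Gabarap, -0.041 for Lamp2, -0.088 for Pink1 and -0.059 for Wipi1. With the slide row as a block, where only row 1 holds both ages, it was -0.30 for Atg12, 0.23 for Atg14, -0.035 for Atg4b, -0.042 for Atg5, 0.33 for Atg9a, 0.44 for Bnip3, 0.098 for Bnip3l and 0.11 for Ulk1, and 0.20 for Adipoq, 0.051 for Cfd and 0.028 for Vwf. Normexp gave -0.0013 for Atg13 and 0.027 for Bnip3, and quantile normalization 0.0018 for Bnip3. Array weights gave -0.051 for Atg13, -0.11 for Becn1, -0.067 for Gabarapl1, -0.083 for Map1lc3b and -0.022 for Pecam1. The mean of probes gave 0.072 for Bnip3 and 0.24 for Bnip3l.

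Leaving out each array gave ranges that crossed 0 for Atg10 (-0.34 to 0.34), Atg12 (-0.017 to 0.32), Atg13 (-0.055 to 0.14), Atg4b (-0.0020 to 0.11), Atg7 (-0.064 to 0.20), Atg9a (-0.49 to 0.014), Becn1 (-0.15 to 0.32), Gabarapl1 (-0.044 to 0.53), Lamp2 (-0.052 to 0.20), Map1lc3b (-0.12 to 0.10), Optn (-0.22 to 0.18), Pink1 (-0.18 to 0.19), Wipi2 (-0.14 to 0.72) and Pecam1 (-0.13 to 0.87). Of 587 values of other named genes 572 kept direction and side of the threshold. S100a8 and S100a9 lost the call with the replicate block (adjusted p = 0.0629 each).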
